A study of Mus musculus with 4 samples.

Results

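Proliferating cells were sought among all lineages of the mouse lung. In the deposited counts, a cell was taken as proliferating when at least 3 of 6 genes of the late cell cycle (Mki67, Top2a, Birc5, Ube2c, Cdk1 and Ccnb2) had a UMI, a unique molecular identifier that marks 1 captured RNA molecule. This rule chose 117 of 9363 cells. Each cell was then given the lineage whose genes had the highest UMI sum, namely endothelial (Cdh5, Cldn5 and Egfl7), T (Cd3d, Cd3e and Cd3g), B (Cd79a and Cd79b), myeloid (Csf1r, Lyz2 and Mrc1) or fibroblast (Col1a2 and Col3a1), which placed 113 of the 117 proliferating cells and left 4 with tied sums.

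The cells came from a single-cell RNA-seq experiment on whole lung, with no sorting, that addressed how loss of the endothelial transcription factor ERG changes the lung. Group WT was made up of 2 mice of genotype ERG fl/fl, whose Erg alleles are floxed but which carry no Cre. Group ERG CKO was made up of 2 mice of genotype CDH5-CreER(T):ERG fl/fl, in which the Cdh5 promoter drives a tamoxifen-inducible Cre in endothelial cells (ECs), so that blood and stromal cells of these mice were not themselves targeted. Mice of both groups received 5 daily doses of 0.5 mg tamoxifen, and lungs were taken 90 days later from C57/BL6 mice of both sexes, whose age the labels do not give. Each library is 1 mouse, so 2 mice stand for each group.

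The adult lung turns over slowly, and most of its ECs rest outside the cell cycle. Alveolar macrophages maintain themselves by local division, lymphocytes divide after activation, and dendritic cell precursors continue to divide after they enter tissues. In a dividing cell, E2F factors switch on genes of DNA replication for S phase, and later the DREAM and MuvB complexes with B-Myb and FoxM1 switch on genes of G2 and mitosis.

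The genes used to choose the cells belong to the second wave, and the promoters of 4 of them are shown because they carry, or lack, the letters through which that wave is known to be read. Among the 6 genes, Mki67 encodes a coat protein of mitotic chromosomes, Top2a untangles DNA, Birc5 (survivin) is a subunit of the chromosomal passenger complex, Ube2c passes ubiquitin to targets of the anaphase-promoting complex, Cdk1 is the kinase that drives mitosis, and Ccnb2 is one of its cyclins. The 200 bases before the start of each gene are given 5′ to 3′ on the strand of the gene, from RefSeq on GRCm38.p6, at chr7:135716380-135716579 (minus strand) for Mki67, chr11:99024190-99024389 (minus strand) for Top2a, chr10:69352913-69353112 (minus strand) for Cdk1 and chr11:117849037-117849236 (plus strand) for Birc5. Capitals mark the cell cycle genes homology region (CHR, TTTGAA or TTCGAA) and the CCAAT box (CCAAT), each on either strand, with no overlap between the 2 motifs in these 4 promoters.
Mki67: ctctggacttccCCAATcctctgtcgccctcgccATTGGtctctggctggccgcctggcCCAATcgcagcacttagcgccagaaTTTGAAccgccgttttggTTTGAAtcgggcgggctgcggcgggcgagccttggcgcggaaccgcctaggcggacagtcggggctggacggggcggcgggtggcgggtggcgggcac
Top2a: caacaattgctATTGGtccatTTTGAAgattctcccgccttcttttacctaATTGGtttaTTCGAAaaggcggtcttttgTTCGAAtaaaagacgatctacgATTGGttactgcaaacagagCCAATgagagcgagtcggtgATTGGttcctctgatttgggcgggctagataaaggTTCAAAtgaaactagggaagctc
Cdk1: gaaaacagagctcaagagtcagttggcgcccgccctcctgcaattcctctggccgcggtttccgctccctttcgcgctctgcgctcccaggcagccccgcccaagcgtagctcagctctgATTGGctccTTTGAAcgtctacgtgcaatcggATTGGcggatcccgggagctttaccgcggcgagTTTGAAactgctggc
Birc5: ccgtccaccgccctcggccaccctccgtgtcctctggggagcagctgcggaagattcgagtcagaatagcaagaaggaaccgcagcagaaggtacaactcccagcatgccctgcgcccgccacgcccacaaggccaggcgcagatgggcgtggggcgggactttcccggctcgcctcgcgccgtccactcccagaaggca

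In windows from 250 bases before to 50 bases after the start, Mki67 held 2 CHR and 3 CCAAT matches, Top2a 4 and 6, Ube2c 1 and 6, Cdk1 2 and 3, and Ccnb2 2 and 3. Birc5 held neither, which says only that these letters are not in this window. The same search was made over a G2/M list of 46 genes, which act in G2 and mitosis and include none of the 6, and 40 of them had a promoter in the table. A CHR match was found in 30 of the 40 (75.0%) and in 19.4% of all 27025 promoters, and a CCAAT match in 30 of 40 (75.0%) and 37.9% of all. For 4 forms of the E2F motif (TTTCCCGC, TTTGGCGC, TTTCGCGC and TTTGCCGC, on either strand) the G2/M list held 1 of 40 (2.50%) against 2.32% of all. For an S phase list of 41 genes, which act in DNA replication, the check was void, since only 29 had a promoter in the table. Matches are a description of the sequence and not of binding.

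**Figure D1:**
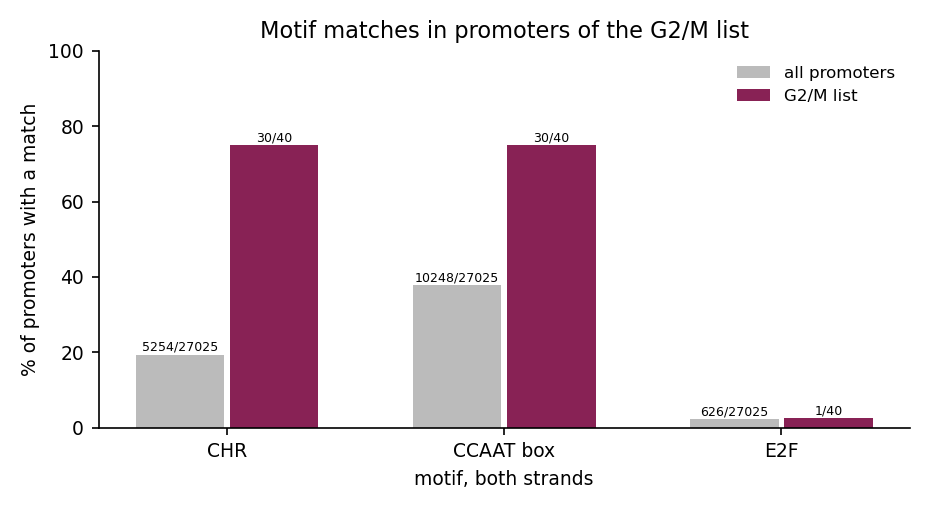
Percent of promoters (vertical axis) that hold a CHR, CCAAT box or E2F match on either strand (horizontal axis), for all promoters and the G2/M list. Numbers above the bars are promoters with a match over promoters searched. CHR matches stand at 75.0% in the G2/M list against 19.4% of all promoters, and E2F matches at 2.50% against 2.32%.

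By library, 33 cells of 2264 were proliferating in WT replicate 1 (1.46%, 95% Wilson interval 1.04 to 2.04), 25 of 2150 in WT replicate 2 (1.16%, 0.789 to 1.71), 41 of 3097 in ERG CKO replicate 1 (1.32%, 0.977 to 1.79) and 18 of 1852 in ERG CKO replicate 2 (0.972%, 0.616 to 1.53). Intervals and limits on shares cover counting error only. The groups overlapped, with means of 1.31% ± 0.208 in WT and 1.15% ± 0.249 in ERG CKO (SD, n = 2), a difference of −0.162 percentage points that was smaller than the spread between mice (exact permutation test, two-sided, p = 0.667). With 2 mice a group this test cannot go below 0.33.

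Proliferating cells were rich in RNA. Their median was 16018 to 21964 UMIs per cell in the 4 libraries against 4590 to 4859 in the other cells, with 3549 to 4592 against 1754 to 1815 detected genes, so that 0.972 to 1.46% of the cells held 2.63 to 4.75% of the UMIs. Depth bears on the rule, since a deeper cell has more chances to show 3 genes. When every cell was drawn down to 1000 UMIs (123 to 433 shallower cells a library dropped out), 11, 13, 18 and 7 cells still met the rule (0.527% and 0.641% in WT, 0.676% and 0.418% in ERG CKO). The median share of mitochondrial UMIs in proliferating cells was 4.27 to 5.07%. Scrublet called 60 of all cells doublets (0.641%) and none of the proliferating cells. Barcodes found in 2 libraries numbered 7, and none was a proliferating cell. Library totals lay between 11263911 and 18646776 UMIs.

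The 6 genes that chose the cells are given as a description only. Mki67 had a UMI in 105 of the 117 cells and 1.43% of the others, Birc5 in 103 and 0.616%, Ube2c in 103 and 0.952%, Top2a in 100 and 3.36%, Cdk1 in 90 and 1.05%, and Ccnb2 in 86 and 1.20%. Between 81.4% (Top2a) and 93.9% (Birc5) of all UMIs of these genes lay in the proliferating cells. All 6 genes were found together in 62 of the cells. Just inside the limit were 22 cells with 3 of the genes, whose median level was 1858 CPM (UMIs of the genes scaled to the total of the cell) for the S phase list and 3797 CPM for the G2/M list. Just outside were 75 cells with 2 of the genes, at 638 and 1635 CPM, close to the 563 and 1210 CPM of the 8525 cells with none. Cells with all 6 genes had medians of 3092 and 13275 CPM.

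Neutrophils, which leave the cell cycle before they enter blood, served as cells that should lack these genes. Of 269 cells with at least 3 of Csf3r, Cxcr2, Retnlg and Mmp9, 2 met the rule (0.743%, median 3453 UMIs per cell). Over all libraries proliferating cells made up 2.10% of myeloid cells (47 of 2235, 95% Wilson interval 1.59 to 2.79), 2.02% of T cells (32 of 1581, 1.44 to 2.84), 0.726% of ECs (28 of 3855, 0.503 to 1.05), 0.602% of B cells (5 of 830, 0.258 to 1.4) and 0.446% of fibroblasts (1 of 224, 0.0788 to 2.48), at median depths of 6905, 6127, 3931, 4542 and 4584 UMIs. The shares of ECs, B cells and fibroblasts were no higher than that of neutrophils. The neutrophil share rests on 2 cells, so it is a rough reference, and whether those 2 were mixed or dividing was not tested. The share alone does not set ECs, B cells or fibroblasts above background. After thinning, shares were 1.02% in myeloid cells, 0.701% in T cells, 0.448% in ECs and 0.123% in B cells against 0.377% (1 of 265) in neutrophils.

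Genes that the rule did not use were compared, within each lineage and library, between proliferating and other cells. The cells were chosen on related genes, so this is a description with no test, and its background is the share of all genes that went the same way in all 4 libraries: 11.5% of genes were higher and 25.6% lower in all proliferating cells, 4.45% and 23.0% in ECs, 11.7% and 16.3% in T cells, and 10.7% and 16.5% in myeloid cells. In WT replicate 2 the endothelial value rests on 1 cell. Levels are CPM over the summed cells of a group.

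The S phase list stood at 4634, 2851, 3183 and 4366 CPM in the proliferating cells of WT replicates 1 and 2 and ERG CKO replicates 1 and 2, against 676, 665, 615 and 663 CPM in the other cells. The G2/M list stood at 10024, 13532, 9998 and 12748 CPM against 1284, 1318, 1238 and 1257 CPM. Every library was higher in proliferating cells, and the groups overlapped. All 46 genes of the G2/M list and 38 of 41 of the S phase list were higher in all 4 libraries, as were 22 of 22 genes of replication licensing and forks, 18 of 18 of the kinetochore and spindle checkpoint, 24 of 24 mitotic kinases, kinesins and spindle proteins, and 21 of 21 of a chromatin and histone list. Among them Rrm2, the regulated subunit of ribonucleotide reductase, was at 280 CPM against 2.62, Mcm5, part of the replicative helicase, at 132 against 8.67, Cenpf, a kinetochore protein, at 366 against 1.35, and Hmgb2, a chromatin protein that peaks in G2, at 3093 against 226.

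These programmes were shared by the 3 lineages with enough cells. In ECs 26 of 41 S phase and 45 of 46 G2/M genes were higher in all 4 libraries, in T cells 32 and 31, and in myeloid cells 39 and 45. Hmgb2 was at 2786 CPM against 120 in ECs, 5572 against 384 in T cells and 2236 against 235 in myeloid cells. Tubb5, a beta tubulin, was at 1932 against 439, 1703 against 314 and 2149 against 214. Prc1, which bundles microtubules of the central spindle, reached 835 CPM against 1.63 in ECs, 128 against 6.04 in T cells and 243 against 3.19 in myeloid cells, and its endothelial values of 1046, 333, 761 and 1120 CPM in the 4 libraries included the library with 1 cell. Cdca3, which triggers mitotic entry, was at 178 against 0.451, 243 against 1.64 and 233 against 1.06.

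**Figure D2:**
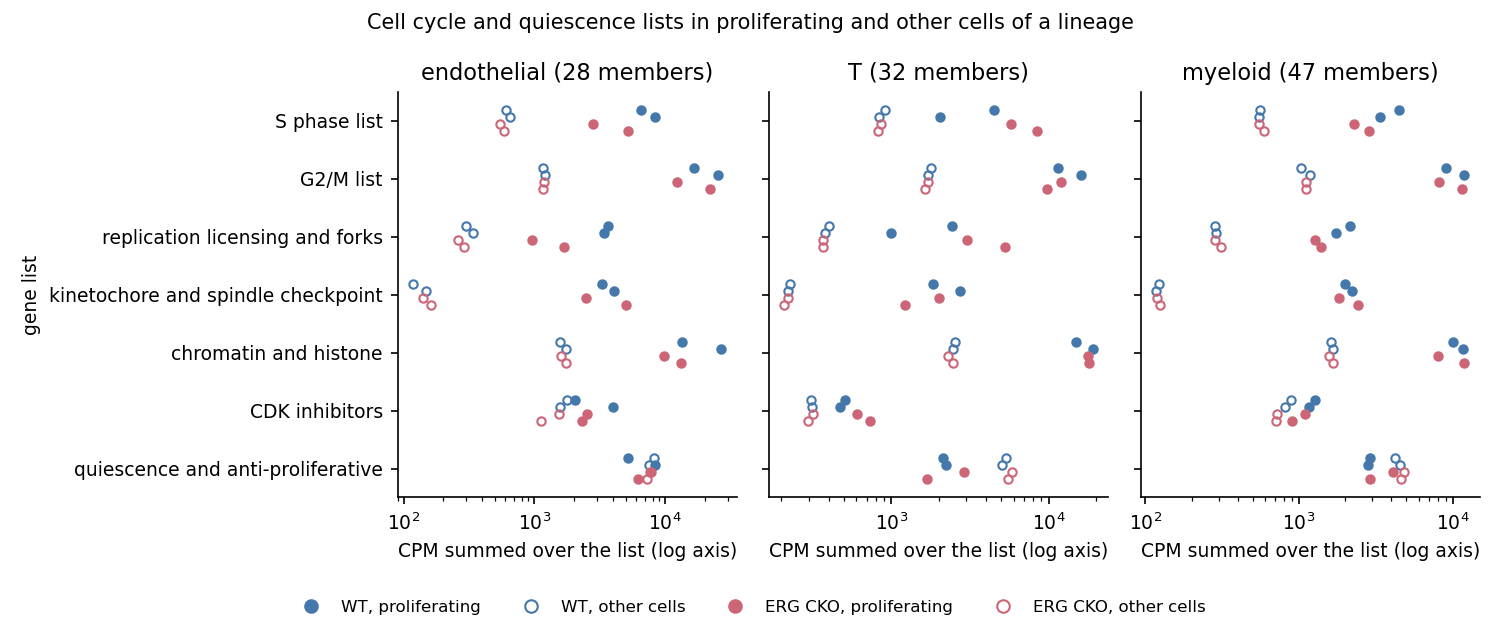
CPM summed over 7 gene lists (log axis) in proliferating cells (filled) and other cells (open) of the endothelial, T and myeloid lineages, 1 point per library. Filled points lie above open points of the same lineage for the first 5 lists, whereas for the quiescence list they lie below in T cells and mix with them in ECs.

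Cyclins and their inhibitors did not move as a block. The S phase and mitotic cyclin Ccna2 was at 290 CPM against 0.789 in ECs, 189 against 0.409 in T cells and 194 against 0.290 in myeloid cells. Ccnd2, a cyclin of G1, was lower in all 4 libraries in each lineage, at 63.7 against 157 in ECs, 118 against 320 in T cells and 210 against 358 in myeloid cells. Ccnd1, another G1 cyclin, was at 287 against 232 in ECs, 93.4 against 55.7 in myeloid cells and 1.97 against 4.09 in T cells, where 1 of 32 cells had a UMI. Of the CDK inhibitors, Cdkn2c (p18) and Cdkn2d (p19) were higher in all 4 libraries in each lineage. Cdkn2c was at 418 against 27.1 CPM in ECs, with library values of 429, 499, 395 and 514, and at 75.0 against 7.47 in T cells and 78.0 against 6.62 in myeloid cells. Cdkn1a (p21), a target of p53, was at 1460 against 1250 CPM in ECs, 75.0 against 44.1 in T cells and 819 against 593 in myeloid cells, and in none of these was it higher in all 4 libraries.

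Anti-proliferative genes were counted in each lineage, and a difference between lineages was not tested. Of 12 genes of quiescence, 9 were lower in all 4 libraries and none higher in T cells (2339 CPM summed against 5467), 6 were lower and 1 higher in myeloid cells (3148 against 4574), and 2 were lower and none higher in ECs (7175 against 7668). Of all genes, 16.3% were lower in all 4 libraries in T cells, 16.5% in myeloid cells and 23.0% in ECs. A dissociation and stress list was also lower, at 2524 against 5178 CPM in T cells, 6221 against 7134 in myeloid cells and 10757 against 12604 in ECs. Btg1, which restrains lymphocyte growth, was lower in all 4 libraries in each lineage, at 472 against 1899 CPM in T cells, 495 against 1106 in myeloid cells and 210 against 360 in ECs. Klf2, a factor of quiescent endothelium and naive T cells, was at 2856 against 2482 CPM in ECs, higher in 2 of 4 libraries, and at 716 against 1089 in T cells and 250 against 546 in myeloid cells, lower in all 4 libraries of both. In ECs the library values were 1698, 2663, 3290 and 2209 CPM against 2529, 2069, 2702 and 2483, which overlapped.

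The balance of S phase against G2/M was taken per cell, with each list scaled by its mean sum over the proliferating cells. By this measure 66 of 117 cells (56.4%) leaned to G2/M, with 51.5% and 76.0% for WT, then 48.8% and 55.6% for ERG CKO. The groups overlapped (difference −11.6 percentage points, exact permutation p = 0.667), and without WT replicate 2 the difference was 0.653. Proliferating T cells of that library stood apart, since 12 of 13 leaned to G2/M, against 4 of 8 in WT replicate 1, 3 of 8 in ERG CKO replicate 1 and 0 of 3 in ERG CKO replicate 2. Their S phase list was at 2057 CPM, against 4493, 5780 and 8416 CPM in the other libraries, and Mcm5 in them was at 22.9 CPM against 192, 220 and 516. This is a leaning and not a phase call, since the rule itself favours late genes.

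The lineages were then compared between genotypes. Among ECs, 6 of 908 cells were proliferating in WT replicate 1 (0.661%), 1 of 913 in WT replicate 2 (0.110%), 16 of 1303 in ERG CKO replicate 1 (1.23%) and 5 of 731 in ERG CKO replicate 2 (0.684%). Both ERG CKO libraries lay above both WT libraries, but the lower of them was only just above WT replicate 1. The difference was 0.571 percentage points (exact permutation p = 0.33, the smallest possible, and 0.416 adjusted over the 5 lineages), with means of 0.385% ± 0.390 and 0.956% ± 0.385 (SD, n = 2). It was 0.295 without WT replicate 2 and 0.299 without ERG CKO replicate 1. At 4 or more of the 6 genes the groups overlapped (0.551% and 0.110% against 0.998% and 0.410%), as they did among cells with at most 10% mitochondrial UMIs (0.702% and 0.115% against 1.29% and 0.615%). After thinning to 1000 UMIs they stood apart (0.259% and 0% against 0.856% and 0.489%), from 2, 0, 9 and 3 cells.

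In the other lineages the counts were as small. T cells had 8, 13, 8 and 3 proliferating cells in the 4 libraries, or 1.78% and 3.53% for WT, then 1.66% and 1.06% for ERG CKO, which differed by −1.30 points. It was −2.17 without WT replicate 1 and −0.420 without WT replicate 2. The groups overlapped when the winning lineage sum had to reach 2 UMIs (1.39% and 3.54% against 1.67% and 1.08%). Myeloid cells had 17, 10, 12 and 8, or 3.58% and 1.96% against 1.54% and 1.70%, a difference of −1.15 points, which was −0.345 without WT replicate 1 and −1.96 without WT replicate 2. B cells had 0, 1, 3 and 1, where 0 of 170 cells allows a share of up to 1.76%, and the other libraries were at 0.474%, 1.19% and 0.510%. Their difference of 0.611 points was 0.374 without WT replicate 1. Leaving out ERG CKO replicate 1 gave 0.273, and leaving out ERG CKO replicate 2 gave 0.949. Each of these had an exact permutation p of 0.33 and an adjusted p of 0.416, so no lineage passed the test. The only fibroblast was in WT replicate 1.

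The makeup of the proliferating cells followed these counts. ECs were 18.8% and 4.0% of the proliferating cells with a lineage in WT and 41.0% and 29.4% in ERG CKO, a difference of 23.8 percentage points with both ERG CKO libraries above both WT libraries (exact permutation p = 0.33, adjusted p = 0.555). T cells were 25% and 52.0% against 20.5% and 17.6%, which differed by −19.4 points (−32.9 without WT replicate 1, −5.92 without WT replicate 2), and myeloid cells 53.1% and 40% against 30.8% and 47.1%, where the groups overlapped. The shares of a library sum to 100 and are not independent.

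Endothelial identity of the 28 cells was checked against genes outside the rule. A list of 10 other endothelial genes stood at 7015 CPM in them and 10001 CPM in other ECs. It was the highest of the cell type lists in 22 of the 28 (6 of 6, 1 of 1, 10 of 16 and 5 of 5 by library). All exceptions were thus in ERG CKO replicate 1. In ERG CKO replicate 1, 6 of the 16 proliferating ECs carried 20 or more UMIs of a fibroblast list of 10 genes, which no proliferating EC of the other libraries did and 4.55% of other ECs did. With all ECs of that kind left out, the shares were 0.700% and 0.112% for WT, then 0.824% and 0.701% for ERG CKO, a difference of 0.356 points. Platelet genes at 10 or more UMIs were found in 4 cells (1 in WT replicate 1 and 3 in ERG CKO replicate 1), and without such ECs the shares were 0.564% and 0.112% against 1.07% and 0.706%. With both kinds left out they were 0.597% and 0.115% against 0.787% and 0.722%. Among ECs of at least 4000 UMIs the groups overlapped, at 1.15% and 0.246% against 1.80% and 0.822%. With all 6 genes of the rule required they stood apart, at 0.220% and 0.110% against 0.614% and 0.410%, from 2, 1, 8 and 3 cells. These shares were added with the values known.

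Erg, the targeted gene, had a UMI in 14 of the 28 proliferating ECs (4 of 6, 1 of 1, 8 of 16 and 1 of 5 by library) and in 28.2% of the other ECs. Its level was 103 and 83.2 CPM for WT, then 95.1 and 30.3 CPM for ERG CKO, against 92.9, 88.5, 103 and 84.1 CPM in other ECs, from 28 UMIs in all. Counts over the whole gene do not show whether floxed exons are missing, so the genotype of a proliferating EC cannot be read from them, and directions are between libraries as labelled.

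By 2 lists of capillary genes, proliferating ECs were nearer the general capillary (gCap) kind than the aerocyte (aCap) kind, the large capillary cells that line the alveoli. A list of 7 gCap genes exceeded one of 7 aCap genes in 27 of the 28 cells (96.4%) and in 82.0% of the other ECs. All 7 aCap genes were lower in proliferating ECs in all 4 libraries, at 389 CPM summed against 1730, with 634, 83.2, 361 and 242 CPM in the libraries against 1810, 2411, 1187 and 1902. Ednrb, the endothelin receptor of aerocytes, had 2 UMIs in 28 cells (6.37 CPM against 254) and Fibin had 3 (9.56 against 162). Emp2 was at 79.7 against 478, Car4 (carbonic anhydrase 4) at 127 against 470 and the factor Tbx2 at 31.9 against 132. The gCap list was at 4357 CPM against 6078, with 3 of 7 genes lower in all 4 libraries, so capillary genes of both kinds were lower and the aerocyte ones more so. Gpihbp1, which holds lipoprotein lipase on the capillary wall, was at 507 against 1011, and Plvap, a protein of fenestrae and caveolae, at 625 against 891. Of other endothelial lists, the arterial was at 2939 against 1488 CPM, the lymphatic at 1619 against 1258 and the venous at 765 against 786. The arterial and lymphatic lists were higher in ERG CKO replicate 1 alone (4012 against 1815 and 2101 against 1702 CPM).

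Outside the cell cycle lists, the genes highest in proliferating ECs by the fixed rule were still of division: Pbk, a mitotic kinase (300 CPM against 0.169), Casc5, a kinetochore scaffold (287 against 0.507), Fam64a (236 against 0), Lockd, the non-coding neighbour of Cdkn1b (220 against 1.30), and Esco2, a cohesin acetyltransferase (185 against 0.169). Lowest, beside Ednrb and Emp2, were Hbb-bs, a haemoglobin gene (12.7 against 1469), Scgb1a1, a club cell secretory gene (185 against 2275), Slfn5, an interferon-induced growth restrainer (44.6 against 311), Edn1, which encodes endothelin (31.9 against 193), and the Tie2 ligand Angpt2 (6.37 against 60.7). The Scgb1a1 level of other ECs came mostly from WT replicate 1 (9320 CPM, against 139, 262 and 89.1 in the other libraries). In ERG CKO replicate 1 it was at 238 CPM in proliferating ECs against 262. Haemoglobin and Scgb1a1 are not endothelial genes, and their levels in either group of cells were not tested for their source.

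The 32 proliferating T cells carried the T cell list of 10 genes outside the rule at 5286 CPM against 3994 in other T cells, and it was their highest list in 24. An NK cell list exceeded it in 2, 4, 1 and 1 cells by library (25% of the 32, against 3.74% of other T cells), and the part of such cells in the effector genes below was not tested. Cd8a or Cd8b1 without Cd4 was found in 11 cells (1, 7, 2 and 1 by library), Cd4 without them in 11 (3, 4, 3 and 1), both in 3 and neither in 7. Most of the Cd8 cells were in WT replicate 2.

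Naive and effector genes went apart in them. Il7r, the interleukin-7 receptor of resting T cells, was at 104, 120, 149 and 17.8 CPM against 792, 588, 901 and 711 in other T cells, and 15 of 32 cells (46.9%) had a UMI against 82.0%. Lef1, a factor of naive cells, was at 101 against 448 CPM, the lymph node homing receptor Ccr7 at 207 against 704 and Tcf7 at 148 against 231, all lower in all 4 libraries. Ctla4, an inhibitory receptor of activated and regulatory T cells, was at 311, 189, 604 and 1174 CPM against 135, 105, 140 and 162, with a UMI in 20 of 32 cells (62.5%) against 24.8%. Granzyme B (Gzmb) was at 282 against 99.4 CPM, Gzmk at 122 against 25.8 and Pdcd1, which encodes PD-1, at 57.2 against 15.2, each higher in all 4 libraries. Of 8 activation and effector genes 5 were higher in all 4 libraries and none lower, and of 5 naive genes 4 were lower and none higher. Ccl5, also an effector gene, was at 3541 against 3802 and higher in 1 library. Foxp3, the factor of regulatory T cells, was found in 4 cells (12.5% against 2.71%).

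Among all genes outside the lists, Igfbp4 (1.97 CPM against 215), the survival gene Bcl2 (23.7 against 331), Tcp11l2 (7.89 against 168) and the chromatin organiser Satb1 (55.3 against 638) were lowest in proliferating T cells. The highest were 2810417H13Rik, which encodes a PCNA-binding protein (606 against 2.56), and the histone gene Hist1h2ab (126 against 0). Reads of histone genes can be shared among almost identical copies, which makes their counts uncertain.

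**Figure D3:**
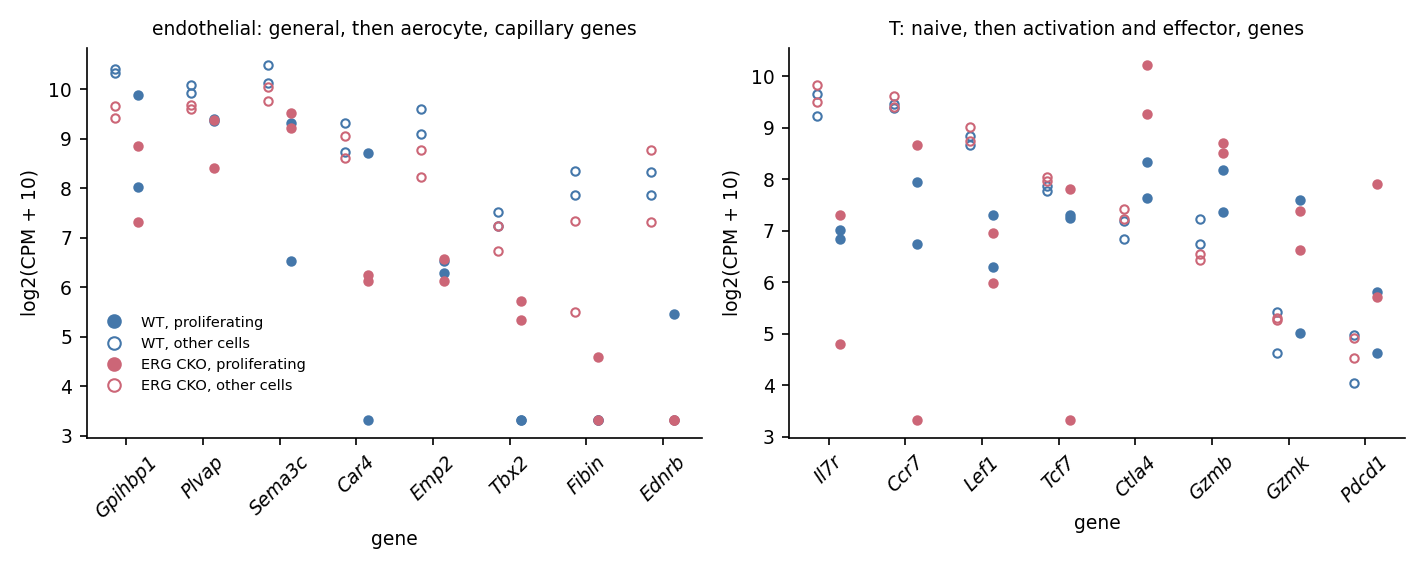
log2(CPM + 10) of capillary genes in ECs (left) and of naive and effector genes in T cells (right), in proliferating cells (filled) and other cells (open), 1 point per library. In ECs Ednrb has 2 UMIs and Fibin 3 in all proliferating cells. In T cells the library values of Il7r are 17.8 to 149 CPM in proliferating cells, below the 588 to 901 CPM of other T cells.

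A myeloid list of 10 genes outside the rule was the highest cell type list in 42 of the 47 proliferating myeloid cells. By library this held in 17 of 17, 8 of 10, 10 of 12 and 7 of 8. In ERG CKO replicate 1 an alveolar epithelial list exceeded it in 2 cells and summed to 18491 CPM. That epithelial list was at 228, 122 and 75.2 CPM in the other libraries. The part of such cells in the comparisons below was not tested. The 47 cells fell into cells high and cells low in an alveolar macrophage list of 10 genes (Chil3, Marco, Fabp1, Ear1 and Ear2 among them). The limit of 2000 CPM was placed, after the values were seen, in a gap between 1063 and 3029 CPM that held none of the cells. Of the 47, 31 were high (66.0%), namely 14 of 17 and 8 of 10 for WT (82.4% and 80.0%), then 5 of 12 and 4 of 8 for ERG CKO (41.7% and 50%). Both ERG CKO libraries lay below both WT libraries, by 35.3 percentage points on average (exact permutation p = 0.33), whereas in cells thinned to 1000 UMIs the groups overlapped (100% and 80.0% against 75.0% and 100%). High cells were 45% and 33.5% of other myeloid cells for WT, then 24.6% and 33.3% for ERG CKO. Within the high cells, proliferating ones were 6.36% and 4.57% (WT), then 2.58% and 2.53% (ERG CKO), which differed by −2.91 points. Within the low cells they were 1.18% and 0.599% against 1.19% and 1.28%, a difference of 0.350 points (exact permutation p = 0.33 for both). The latter was 0.638 without WT replicate 1 and 0.0608 without WT replicate 2.

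The 16 low cells (3, 2, 7 and 4 by library) were mixed. In 12 of them (3, 1, 5 and 3 by library) genes of MHC class II, on which dendritic cells present antigen, stood at 40408 CPM or more, and all 12 had a UMI of other dendritic genes. In the remaining 4 (0, 1, 2 and 1) class II was at 6716 CPM or less, and 1 had such a UMI. The limit between them, 20000 CPM, was set with the values known. Summed over all 16, class II genes (H2-Ab1, H2-Aa, H2-Eb1 and Cd74) stood at 53540, 53373, 65714 and 58134 CPM by library, and at 3351, 2203, 2486 and 1346 CPM in the high cells, and 13 of the 16 had a UMI of the 8 other dendritic genes in the list, against 4 of the 31. Between genotypes the low cells of ERG CKO were above those of WT in these sums, and the high cells overlapped. In WT replicate 2 the 2 low cells were at 73322 and 0 CPM of class II. Over all 47 cells class II was at 12457 and 12347 CPM for WT, then 36260 and 26190 CPM for ERG CKO. In other myeloid cells it was 7239 and 7762 against 15974 and 13631 CPM. The interstitial macrophage list was low in all, at 113 CPM against 1987 in other myeloid cells, with 8 of 8 genes lower in all 4 libraries, such as Apoe, a lipid carrier, at 55.7 against 1448 and the complement gene C1qb at 12 against 127. A monocyte list of 8 genes was at 1024 against 1450 CPM, with 3 genes lower in all 4 libraries and none higher. In it Plac8 was at 90.9 against 649, whereas Ly6c2 was at 151 against 129 and Ccr2 at 108 against 107. A neutrophil list of 6 genes stood at 55.4, 48.0 and 41.8 CPM in the first 3 libraries and at 42552 CPM in ERG CKO replicate 2, against 2624, 5379, 8761 and 8044 CPM in other myeloid cells. In ERG CKO replicate 2 this list exceeded the myeloid list in 1 of the 8 proliferating cells.

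**Figure D4:**
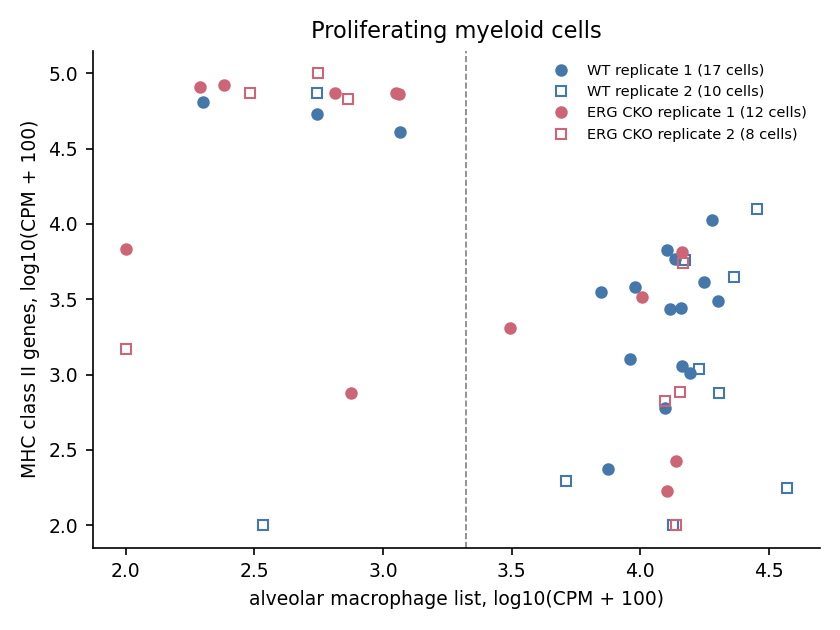
Each proliferating myeloid cell by its alveolar macrophage list (horizontal axis) and its MHC class II genes (vertical axis), both as log10(CPM + 100), with the limit of 2000 CPM dashed. Of the 31 cells at the right, 22 are from WT, and of the 16 at the left, 11 are from ERG CKO and most have high class II.

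Genes were tested between genotypes on counts summed over the proliferating cells of each mouse. Over all 117 cells edgeR's quasi-likelihood test called 0 of 7136 genes (0%), with adjusted p-values held to 0.05. DESeq2 called 15, and 488 genes had an unadjusted p under 0.05 in edgeR. The lowest adjusted p, 0.156, was that of genes of the lineages themselves. Marco, a scavenger receptor of alveolar macrophages, was at 326 and 307 CPM for WT, then 52.1 and 27.0 CPM for ERG CKO (log2 fold change −2.88, SE 0.35), and Cd79a and Cd79b, of the B cell receptor, were at 0 and 4.61 against 73.0 and 77.5 CPM and at 4.29 and 6.92 against 62.6 and 74.2 CPM. None of these passed the test.

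The lineage lists followed the makeup in this fit. The median log2 fold change of ERG CKO over WT was 0.00 over all genes, 1.65 over 8 endothelial genes outside the rule (8 higher), −0.89 over 10 T cell genes (10 lower) and −1.20 over 10 alveolar macrophage genes (10 lower), whereas it was 0.02 over 39 tested S phase genes and 0.00 over 45 tested G2/M genes, with none called. The genes of the rule had log2 fold changes between −0.40 (Birc5) and 0.32 (Top2a), which are a description only, since these genes chose the cells. Mki67 was at 721, 591, 727 and 772 CPM, and Top2a at 762, 655, 791 and 947 CPM.

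Myeloid cells alone had at least 8 proliferating cells in every library, under the 10 that had been set for such a fit, so the test within them was added with their numbers known. It called 5 of 4251 genes (0.118%), 4 higher and 1 lower in ERG CKO (edgeR, 271 at an unadjusted p under 0.05). Those higher were H2-Eb1 (log2 fold change 1.85, SE 0.21, adjusted p = 0.0116), H2-Ab1 (1.53, SE 0.19, adjusted p = 0.0199) and Cd74 (1.35, SE 0.18, adjusted p = 0.0199) of the class II pathway, and the metallothionein Mt2 (2.69, SE 0.39, adjusted p = 0.0416). H2-Eb1 was at 1718 and 1766 CPM for WT, then 6767 and 4767 CPM for ERG CKO, and Mt2 at 39.0 and 61.1 against 361 and 199 CPM, with 74 of its 165 UMIs in 2 cells. Lower was the chemokine Ccl5 (log2 fold change −5.36, SE 0.59, adjusted p = 0.0116), at 478 and 737 against 22.8 and 0 CPM, of which 382 of 408 UMIs lay in 2 WT cells, and 1 proliferating myeloid cell in each WT library carried 20 or more UMIs of the T cell list. At 2 or more of the 6 genes none of the 5 was called (adjusted p 0.404 to 0.494) and edgeR called 0 genes, with 304 at an unadjusted p under 0.05. Under the rule as used, the cells low in the alveolar macrophage list with class II above 20000 CPM numbered 3, 1, 5 and 3 by library.

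In the same fit no gene of the S phase list was called, and 25 of its 27 tested genes were lower and 1 higher in ERG CKO, with a median log2 fold change of −0.49 against 0.02 over all genes. The list summed to 4492 and 3345 CPM for WT, then 2294 and 2850 CPM for ERG CKO. The G2/M list had 23 higher and 19 lower of 42 genes and a median of 0.12, at 9093 and 11924 against 8207 and 11504 CPM. The alveolar macrophage list was lower for 10 of 10 genes (median −0.73, none called), and Marco within the high cells alone was at 571 and 724 CPM for WT, then 293 and 76.3 CPM for ERG CKO.

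Whether the genotype difference in proliferating myeloid cells departed from that in other myeloid cells was tested as an interaction, with the library as a block. It was called for 16 of 11248 genes (0.142%), 6 higher and 10 lower. The class II genes were not among them (H2-Eb1 0.55, SE 0.23, adjusted p = 0.707 and Cd74 0.38, adjusted p = 0.905). Other myeloid cells had more class II in ERG CKO as well, as given above. Marco was called (−2.56, SE 0.44, adjusted p = 0.0264), at 467 and 580 against 141 and 42.9 CPM in proliferating cells and 301 and 254 against 268 and 335 CPM in the others, and so was Mt2 (2.62, SE 0.40, adjusted p = 0.0159). Also called were Ccl5 (−5.74), Chil1 (5.57), Ms4a6b (−3.89), Nkg7 (−12.45), Sdc4 (10.66), Vps37b (−3.36), Epsti1 (−2.55) and 2810417H13Rik (−3.18). For 2810417H13Rik, a gene of division, other myeloid cells were near 0 (0.189 and 0.601 CPM for WT, 1.97 and 4.16 CPM for ERG CKO), so that its value rests on these low counts. Between the proliferating myeloid cells alone its log2 fold change was −0.34. Many of the called genes rested on very few cells. Chil1 had 27 of 29 UMIs and Nkg7 101 of 142 in 2 proliferating cells, with no Nkg7 UMI in ERG CKO. Sdc4 had 16 of 19 UMIs in 1 proliferating cell and none in WT. Of the T cell genes, Trbc2 had 114 of 116 UMIs, Ms4a4b 171 of 186 and Cd8b1 107 of 108 in 2 proliferating cells, and of the epithelial genes Wfdc2 had 107 of 109, Cxcl15 27 of 28 and Cp 22 of 22 in 1 cell each of ERG CKO replicate 1. With doublets left out 3 of the 16 were called, and at 2 or more of the 6 genes edgeR called 0 (402 genes at an unadjusted p under 0.05).

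Of the 4 cells with tied lineage sums, 3 carried NK genes, for which the rule has none. In these NK genes had 158, 104 and 164 UMIs, and 1 of these also had 558 UMIs of neutrophil genes. The remaining one had 489 class II UMIs and 19 UMIs of a myeloid list.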

How the data were processed

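Single-cell RNA-seq of whole lung from 4 mice was used. The deposited matrix holds unnormalized counts of UMIs for 20076 gene rows, and the submitters' processing notes name Cell Ranger 3.1.0 and mm10 for it. The quality filter of the study is not given with its limits, and no cell was removed here. For the dissociation, the labels name a Miltenyi kit and the methods Liberase with DNase. Cells were chosen and given lineages on the counts as deposited. The members, lists and named genes were chosen with earlier results of these data known. Named genes were all called genes up to 10 a direction, the genes of the rule and Erg, up to 4 examples of a list, and the 10 highest and lowest outside the cell cycle lists in each lineage. Other genes named are examples chosen after their values were seen.

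Counts were summed over the proliferating cells of each library and tested with edgeR 4.0.16 in R 4.3.3 (quasi-likelihood, TMM, filterByExpr, Benjamini-Hochberg adjusted p at most 0.05), with DESeq2 1.42.0 as an alternative. Shares were compared by exact permutation over the 4 libraries (scipy 1.17.1). P-values measure the spread between these 4 mice. Doublets were called with Scrublet in scanpy 1.11.5. In folds of proliferating over other cells 10 CPM were added. Tested on simulated data with 100 genes changed by each fold, the fit over all proliferating cells recovered 26% of 2-fold and 89% of 4-fold changes. That of myeloid cells recovered 31% and 91%, and the interaction 4% and 63%. False calls numbered 2, 9 and 3. The simulation used a single dispersion, gave all mice the same cell makeup and changed only genes of higher counts. Recovery in the real sums may therefore be lower.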

Additional observations from a re-analysis of the deposited data

Results flagged for a closer look

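The share of proliferating cells moved in opposite directions between lineages, with both libraries of ERG CKO beyond both of WT in each: 0.571 percentage points higher in ECs and 0.611 in B cells, and −1.30 in T cells and −1.15 in myeloid cells. The difference between lineages was not tested. Leaving out each library in turn gave 0.295 to 0.846 points in ECs, 0.273 to 0.949 in B cells, −2.17 to −0.420 in T cells and −1.96 to −0.345 in myeloid cells. Within myeloid cells the share was −2.91 points in cells high in the alveolar macrophage list and 0.350 points in cells low in it, and this difference was not tested either. The value in low cells was 0.0608 without WT replicate 2. A genotype difference that departed between proliferating and other myeloid cells was called for 16 genes by a test of the interaction (edgeR). Many of these rested on very few cells. With doublets left out 3 were called, and at 2 or more of the 6 genes 0.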

How the results depend on the processing

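Fits within a lineage at the planned minimum of 10 cells could not be run, since no lineage had 10 proliferating cells in every library. Alternatives kept the direction of the shares in 151 of 161 cases over 15 shares, and 283 of 336 alternatives of named genes kept direction and call. The counts of called genes were unstable: with no filter on low counts they were 357 over all proliferating cells, 193 in myeloid cells and 190 for the interaction, with DESeq2 15 and 11, and without each library in turn 0 to 63, 90 to 156 and 57 to 237. At 2 or more of the 6 genes edgeR called 0 in myeloid cells and 0 for the interaction, and with doublets left out 3 for the interaction. With a replicate block 69 genes were called over all proliferating cells and 28 in myeloid cells. For shares, with 1 library of each group under each number, a block cannot change a mean difference. The replicate numbers do not come with a stated pairing, and deviations of same-numbered libraries correlated at 0.127 over 8979 genes; both replicate 1 libraries had Xist (992 and 1044 CPM) and no Ddx3y, and both replicate 2 libraries had Ddx3y (113 and 121 CPM) and no Xist. Leaving out each library in turn gave −0.338 to 0.0137 points for the share of all cells, −15.8 to 0.496 for the myeloid part of the proliferating cells, −23.8 to 0.653 for the share leaning to G2/M, and −1.12 to 0 and −3.12 to 0 for the share and part of fibroblasts, which were also 0 at 4 or more genes and after thinning. The share in myeloid cells low in the alveolar macrophage list was −0.0557 after thinning. On the log2 scale, leaving out libraries gave −0.14 to 0.44 for Ube2c, −0.05 to 0.45 for Cdk1 and −0.55 to 0.31 for Ccnb2 over all cells, −0.39 to 0.06 for Mki67 and −0.31 to 0.06 for Top2a in myeloid cells, and −2.76 to 13.13 for Wfdc2 in the interaction. Without myeloid cells Ube2c was at −0.24 and Cdk1 at −0.05, and at 2 or more genes Mki67 was at 0.05 and Top2a at 0.07 in myeloid cells. The cause of these changes was not tested. The fit of myeloid cells, the limit on the alveolar macrophage list and the left-out endothelial cells were chosen after seeing the data.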
